A study of Mus musculus with 4 samples.

Results

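Leukocytes from injured muscle of myeloid Bach1 knockout mice and of control mice were compared at dpi2, 2 days after injury, across all genes. The cells were chosen from the Control dpi2 and KO dpi2 libraries by keeping barcodes with at least 500 detected genes and less than 10% of their unique molecular identifiers (UMIs, the tags that count single mRNA molecules) on mitochondrially encoded genes. The rule kept 6010 of 6602 barcodes in the Control dpi2 library and 3799 of 4177 in the KO dpi2 library, which are 9809 of the 17665 cells that the same rule kept in all 4 libraries of the series.

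The series measured mRNA in single cells of the tibialis anterior, a muscle of the shin, after an injection of cardiotoxin, a component of snake venom that destroys muscle fibres. Leukocytes were enriched from the digested muscle with magnetic beads against CD45, a surface protein of blood-derived immune cells. The KO group was Bach1 fl/fl Lyz2-Cre, the control group Bach1 fl/fl littermates without Cre, all on a C57BL/6 background, male and 8-12 weeks old, and both groups received cardiotoxin and were collected at dpi2. The floxed Bach1 alleles were therefore present in both groups, and Cre in the KO group was driven from the Lyz2 locus, which is active in monocytes, macrophages and neutrophils and in few other cells. Each group was 1 library, listed as 1 sample per group. The paper describes this experiment as made with individual mice, in contrast to its bone marrow chimeras. It does not say outright whether cells of several mice were pooled in a library. No test between groups was possible, and a difference between genotypes cannot be told apart from a difference between these libraries.

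BACH1 is a transcription factor that binds short DNA elements together with small MAF proteins and keeps the genes behind them low. Heme, the iron-containing ring of myoglobin and hemoglobin, binds BACH1 and leads to its export and degradation, and the activator NRF2 can then occupy the same elements. Targets of this switch are known to include genes that degrade heme, store or export iron, and make glutathione. Injured muscle fills first with neutrophils and Ly6C-high monocytes, which take up heme-rich debris and later give rise to macrophages that accompany regeneration.

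The Control dpi2 library held 77978276 UMIs in kept cells and the KO dpi2 library 56181953, with medians of 10983 and 11934 UMIs and of 2970 and 3002 genes per cell. The pair of libraries shared 14 barcodes, of which 12 were kept in both. The same genes are given below at dpi4, 4 days after injury, from other mice and other libraries. UMIs of all kept cells were summed per library and expressed as CPM, counts per 1000000 UMIs of the library, with exact Poisson 95% intervals, and the CPM ratio of KO over Control carries an exact conditional 95% interval. These intervals cover counting error only and not the spread between mice. In such sums, more cells of a type and more mRNA of a gene in each cell cannot be told apart.

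The targeted gene could not be checked by its counts. Bach1 (ENSMUSG00000025612, chromosome 16, mm10 87698945 to 87733346, plus strand) stood at 189 CPM (95% interval 186 to 192) in the Control library and at 187 CPM (184 to 191) in the library labelled KO, a ratio of 0.991 (0.966 to 1.02). Counts per gene from the 3′ end of mRNA do not show whether an inner exon was removed, so this value checks nothing. Because Bach1 did not show the label, the text speaks of the library labelled KO. Lyz2, the lysozyme gene that carries the Cre insertion, did follow the label, with 9447 CPM (9426 to 9469) in Control and 17.6 CPM (16.5 to 18.7) in KO, 538-fold lower (506 to 574). Its neighbour Lyz1, which encodes the intestinal lysozyme, lay on the other side, with 17.5 CPM in Control and 505 CPM in KO, 28.9-fold higher (27.4 to 30.6). Lyz1 and Lyz2 are near-identical copies next to each other on chromosome 10, so the counting could have split reads between them, and the part of that in the Lyz1 value was not tested. The groups thus differed in Lyz2 mRNA as well as in Cre, and the part of that in the values of other genes was not tested. Xist, the RNA of the inactive X chromosome of female cells, had 2 UMIs in Control and 3 in KO, under the minimum for a call, with a ratio of 2.08 (0.238 to 24.9).

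A size rule was used in place of a test. A gene with at least 50 UMIs in the pair was called when its CPM differed at least 2-fold and the counting interval left out 1. Of 12353 genes with enough UMIs, 391 were higher in the library labelled KO, which is 3.17% of the genes, and 364 were lower, which is 2.95%. The median log2 ratio over these genes was -0.03. Where another setting ended a call or moved a named gene by more than 1.5 times, its log2 ratio under that setting is given too, chiefly with the cell class shares of the Control library applied to both libraries (Control class shares) or with every cell given the same weight (equal weight). The largest additions in CPM were in Fth1, the heavy chain of the iron store ferritin, Hmox1, the inducible heme oxygenase, and Cxcl2, a neutrophil-attracting chemokine. Besides Lyz2, the largest losses included Spp1 (osteopontin), Actb, Tmsb4x, Lgals3 and the interferon-induced genes Ifi27l2a and Ifitm3. Spp1 was at 7934 CPM in Control and 4983 in KO, short of a 2-fold difference. Ifi27l2a was at 2400 and 941 CPM.

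**Figure D1:**
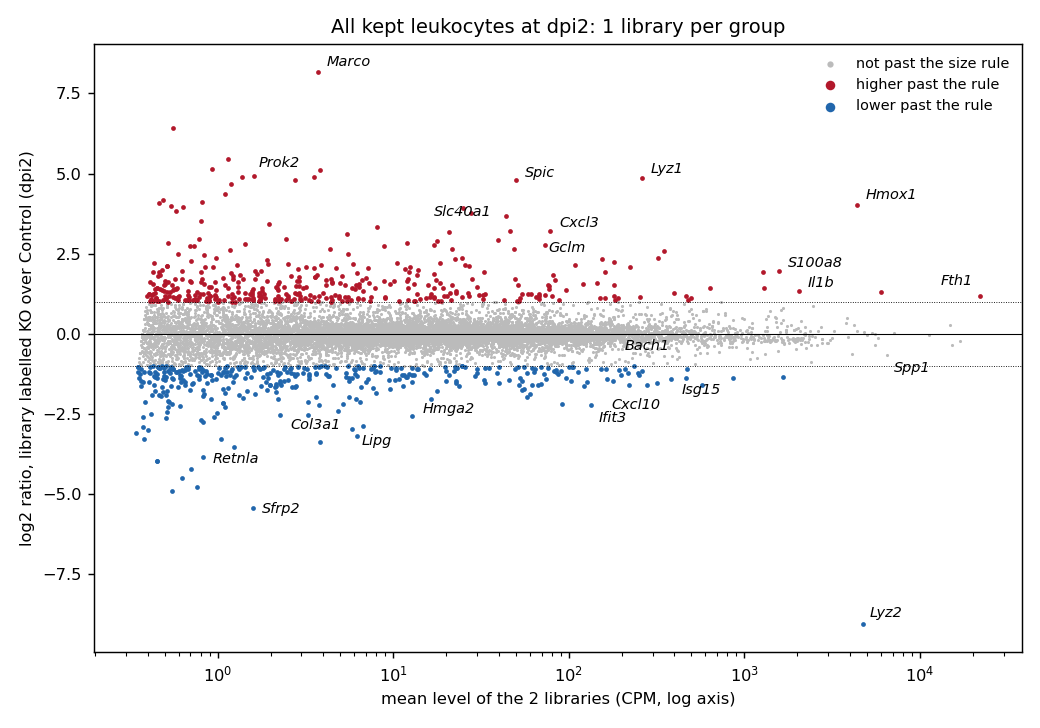
Log2 ratio of KO over Control at dpi2 (y axis) against the mean CPM of both libraries (x axis, log scale) for each tested gene, with genes past the size rule in red (higher) and blue (lower) and dotted lines at 2-fold; Cthrc1, with 52 UMIs in Control and 0 in KO, is not drawn. Marco, Spic, Lyz1 and Hmox1 stand among the 391 higher genes and Lyz2 lies lowest of the 364 lower genes, while Bach1 lies at 0.

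Ranked by the interval bound nearest to 1, the genes highest in the library labelled KO were led by Marco. Marco (chromosome 1, 120474538 to 120505024), a scavenger receptor of macrophages, had 2 UMIs in Control and 418 in KO, a ratio of 290 (79.8 to 2403). Spic, the transcription factor of heme-recycling macrophages, was at 3.51 CPM in Control and 96.9 in KO, 27.6-fold higher (24.4 to 31.3). Mt3, a metallothionein, had a ratio of 27.6 (16.4 to 49.9) on low counts, at 0.192 and 5.30 CPM. Prok2, a secreted prokineticin, was at 0.218 and 7.46 CPM, 34.2-fold higher (21.1 to 59.3), and Il1f9, an interleukin-1 family cytokine, at 3.10 and 47.1 CPM. Stfa1 and Gm5483, of the stefin A family of cysteine protease inhibitors, were 29.7-fold and 9.12-fold higher. Stefin A genes are near-identical copies, so each of these values is uncertain. Acta2, the smooth muscle actin, was at 3.83 and 51.9 CPM, 13.5-fold higher (12.0 to 15.3), and Chil1, a chitinase-like secreted protein, 9.97-fold higher. With Control class shares the log2 ratio of Chil1 went from 3.32 to 1.92, that of Stfa1 from 4.89 to 3.63, that of Gm5483 from 3.19 to 1.84 and that of Acta2 from 3.76 to 2.97. Marco went from 8.18 to 6.098 with mitochondrial UMIs under 5%, Mt3 from 4.79 to 6.32 without called doublets and to 4.09 at equal weight, and Acta2 to 4.97 at equal weight.

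Among the lowest ratios was that of Sfrp2, a secreted Wnt inhibitor of stromal cells, at 3.09 CPM in Control and 0.0712 in KO, 43.4-fold lower (16.7 to 161) on 241 and 4 UMIs. Lipg, the endothelial lipase, was at 10.4 and 1.32 CPM, 7.88-fold lower (6.20 to 10.1). Hmga2, a chromatin protein, was at 22.0 and 3.68 CPM, 5.97-fold lower (5.16 to 6.92). Cxcl9, an interferon-induced chemokine, was 5.80-fold lower (4.37 to 7.85), at 5.58 and 0.961 CPM. At equal weight the log2 ratio of Sfrp2 went from -5.44 to -4.49 and that of Lipg from -2.98 to -2.23.

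**Figure D2:**
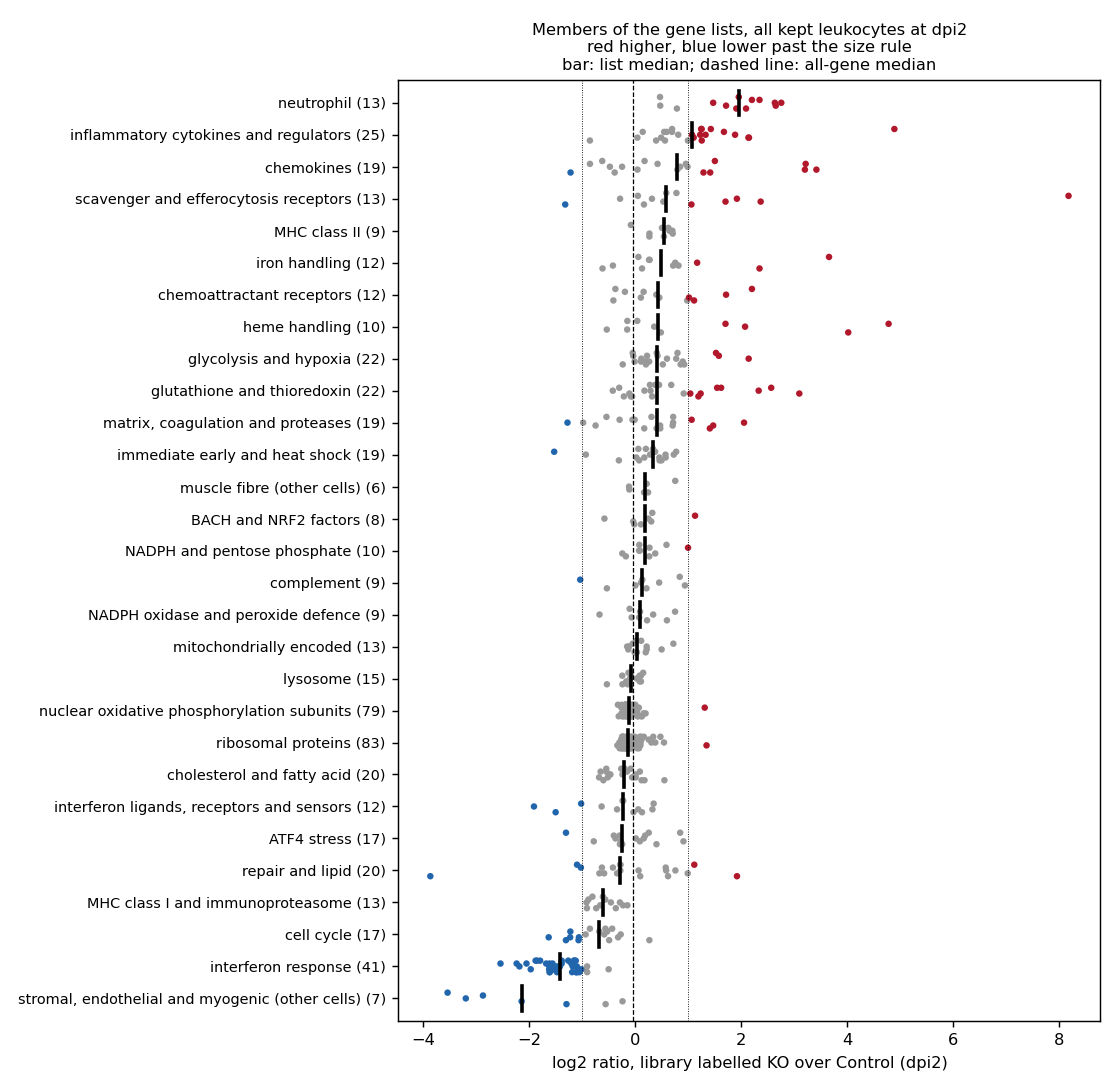
Log2 ratio of KO over Control at dpi2 (x axis) for the tested members of each gene list, with the number tested in parentheses, 1 point per gene, bars at list medians and a dashed line at the median of all genes. The 41 interferon response genes all lie below 0 (median -1.42), and the neutrophil list (1.96) and the inflammatory list (1.08) have the highest medians.

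The BACH and NRF2 factors themselves differed little. Of 8 members tested, Maff, a small MAF partner of both, was higher past the rule at 40.7 CPM in Control and 89.4 in KO, and the median log2 ratio was 0.18. This call ended with Control class shares, where the log2 ratio of Maff was 0.83. Nfe2l2, the gene of NRF2, was at 290 and 346 CPM. Keap1, the adaptor that marks NRF2 for degradation, was at 44.4 and 29.8 CPM, and Bach2 at 7.68 and 9.50 CPM.

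Heme-handling genes were higher in the library labelled KO for 4 of 10 tested members, with none lower and a median log2 ratio of 0.43. Hmox1 (chromosome 8, 75093621 to 75100589, plus strand), which opens the heme ring and frees its iron, was at 505 CPM (500 to 510) in Control and 8215 CPM (8191 to 8238) in KO, 16.3-fold higher (16.1 to 16.4). Slc48a1, which carries heme out of the phagolysosome, was at 86.0 and 363 CPM, 4.22-fold higher (4.11 to 4.34). Cd163, the receptor for hemoglobin bound to haptoglobin, was at 13.2 and 43.3 CPM, 3.27-fold higher (3.04 to 3.52). With Spic, these were the members past the rule. The constitutive heme oxygenase Hmox2 went from 140 to 97.0 CPM, short of the rule, and Blvrb, a biliverdin reductase that acts after heme oxygenase, from 141 to 181 CPM.

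Iron-handling genes showed the same side, with 3 of 12 tested members higher, none lower and a median log2 ratio of 0.50. Slc40a1 (chromosome 1, 45908068 to 45926523), which encodes ferroportin, the iron exporter of the cell surface, was at 6.41 CPM in Control and 81.1 in KO, 12.7-fold higher (11.5 to 13.9). Fth1 was among the most abundant mRNAs of both libraries, at 13567 and 30596 CPM, 2.26-fold higher (2.25 to 2.26). The light chain Ftl1 was at 13449 and 16294 CPM, which is 1.21-fold. Lcn2, which binds iron-carrying siderophores and is made by neutrophils, was at 8.04 and 41.0 CPM. The log2 ratio of Slc40a1 went from 3.66 to 2.63 at equal weight, and that of Lcn2 from 2.35 to 1.35 with Control class shares. Tfrc, the transferrin receptor that takes iron up, was 1.65-fold higher at 60.8 and 100 CPM and did not pass the rule.

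Glutathione and thioredoxin genes were higher for 8 of 22 tested members, with none lower and a median log2 ratio of 0.42. Slc7a11, the cystine importer that supplies glutathione synthesis, was at 100 CPM in Control and 595 in KO, 5.94-fold higher (5.80 to 6.09). Both subunits of the enzyme for the first step of that synthesis were higher, Gclm at 51.2 and 258 CPM (5.04-fold, 4.87 to 5.22) and Gclc at 34.8 and 82.0 CPM (2.36-fold). Mgst2 and Gstm1, which conjugate glutathione to other molecules, were 8.58-fold and 2.93-fold higher, and Abcc1, which exports the conjugates, was 2.29-fold higher. Nqo1, a quinone reductase, was at 1.09 and 3.36 CPM, and Gsr, glutathione reductase, at 120 and 247 CPM. Txnrd1 (thioredoxin reductase, 119 and 225 CPM) and Srxn1 (sulfiredoxin, 37.9 and 61.0 CPM) stayed short of 2-fold, and Gpx1, a glutathione peroxidase, was lower at 1237 and 1006 CPM. Of 10 tested genes that make NADPH, only Me1, the cytosolic malic enzyme, passed the rule, at 0.667 and 1.33 CPM with a ratio of 2.00 (1.39 to 2.91), and the list's median was 0.18. The Me1 call ended under several settings, with a log2 ratio as low as 0.30 at equal weight. With Control class shares, Gstm1 (log2 ratio 0.91), Gclc (0.96), Gsr (0.80) and Nqo1 (0.73) were short of the rule as well, and Mgst2 went from 3.10 to 1.71 and Slc7a11 from 2.57 to 1.73. At equal weight several of these genes lay higher, with Gstm1 at 2.47, Gclc at 1.90, Nqo1 at 2.74, Mgst2 at 4.17 and Gclm at 3.13 in place of 2.33.

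Start-site sequences were read to show the element to which BACH1 and NRF2 bind. RefSeq windows from 250 bases before to 50 bases after the gene start (GRCm38.p6) were at hand for 9648 of the 12353 tested genes. TGANTCAGC was searched on both strands and was present in 128 windows (1.33%), and the looser TGACNNNGC, which can overlap it, in 1652 (17.1%). Among the members of the heme, iron, glutathione and NADPH lists past the size rule, 10 had a window, and Me1 held TGANTCAGC while Gclm and Me1 held TGACNNNGC. Members of these lists short of the rule had 35 windows, of which 2 (Prdx1 and Srxn1) held TGANTCAGC and 8 the looser letters. TGANTCAGC also stood in 3 of 29 windows of interferon response genes that were lower past the rule, those of Cxcl10, Ifit3 and Ifit3b, and in that of Trim30a, so it was not limited to higher genes. The match in Me1 lies across the gene start at chr9:86695902-86695930, minus strand, and stands in capitals in the 29 bases shown.
Me1: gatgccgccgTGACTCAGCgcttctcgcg
No match says only that these letters are not in the window, and distal elements were not covered. Because fewer than 80% of the tested genes had a window, shares of motifs were not compared between gene sets.

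Interferon response genes were lower in the library labelled KO as a group. Type I and type II interferons induce these genes through receptors of the cell surface, and their products sense, degrade or block viral nucleic acid or attract lymphocytes. Of 41 tested members, 37 were lower past the size rule, none was higher, and the median log2 ratio was -1.42. Isg15, a ubiquitin-like modifier, was at 557 CPM (551 to 562) in Control and 208 CPM (205 to 212) in KO, 2.67-fold lower (2.62 to 2.73). Ifit3, whose product binds foreign RNA in a complex, was at 222 and 47.3 CPM, 4.70-fold lower (4.51 to 4.90), and Ifit2 at 150 and 33.2 CPM. Cxcl10, a lymphocyte-attracting chemokine, was at 423 and 138 CPM, 3.06-fold lower (2.99 to 3.14). The regulator Irf7 was 3.05-fold lower, at 332 and 109 CPM. Rsad2 (viperin), Bst2 (tetherin) and Mx1 were lower as well, at 475 and 164, 644 and 297, and 94.9 and 25.9 CPM. The members short of the rule were Irf9 (82.7 and 58.6 CPM), Oas1a (47.6 and 25.5), Trim30a (393 and 210) and Ifi204 (691 and 362), each lower in KO.

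The element to which the interferon factors bind was searched in the same RefSeq windows as GAAA, 2 bases of any kind and GAAA again, on both strands. It was present in 381 of the 9648 windows (3.95%), and in 17 of the 29 windows of interferon response genes past the rule. Members short of the rule had 3 windows, of which 2 (Oas1a and Trim30a) held it too. The sequences of Ifit3 and Gbp5, a guanylate-binding protein, are shown because their ratios were among the lowest of the members that hold the element. Capitals mark the element, here read on the strand of the gene as TTTC, 2 bases and TTTC. The Ifit3 stretch is chr19:34583343-34583446, plus strand.
Ifit3: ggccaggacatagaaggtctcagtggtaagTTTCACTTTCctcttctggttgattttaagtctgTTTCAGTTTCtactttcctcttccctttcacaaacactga
Gbp5: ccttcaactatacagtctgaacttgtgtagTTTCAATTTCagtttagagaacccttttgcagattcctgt
The Gbp5 stretch is chr3:142496739-142496808, plus strand. The stretch of Ifit3b, a copy of Ifit3 on the same chromosome, was identical to that of Ifit3 over 104 bases, with 0 different. Ifit3b was at 27.7 CPM in Control and 8.01 in KO and Gbp5 at 12.4 and 3.45 CPM. The counts of Ifit3 and Ifit3b could share reads, which was not tested, so the split between them is uncertain.

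Genes that make, bind or trigger interferon differed less than the response genes. Of 12 tested members, 3 were lower past the rule, and the median log2 ratio was -0.23. Ifng, the type II interferon of T and NK cells, had 52 UMIs in Control and 10 in KO, at 0.667 and 0.178 CPM, 3.75-fold lower (1.88 to 8.27). Of these UMIs, 50 and 9 lay in T or NK cells, which were 1.88% and 1.11% of kept cells. Within those cells Ifng was 2.44-fold lower (1.19 to 5.64). The RNA and DNA sensors Tlr3 and Tlr9 were lower at 10.4 and 5.13 CPM and at 1.81 and 0.641 CPM, and the Tlr3 call ended with Control class shares, at a log2 ratio of -0.85, and with median-of-ratios factors. The receptor genes Ifnar1 (104 and 115 CPM) and Ifngr1 (146 and 186 CPM) were not lower. The type I interferon gene Ifnb1 had under 50 UMIs in the pair and was not tested.

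Inflammatory cytokines and their regulators were higher for 13 of 25 tested members, with none lower and a median log2 ratio of 1.08. Il1b was at 1164 CPM (1157 to 1172) in Control and 2933 CPM (2919 to 2947) in KO, 2.52-fold higher (2.50 to 2.54), and Il1a, the other interleukin-1, at 9.48 and 41.8 CPM. Its antagonists were higher too, with the decoy receptor Il1r2 at 39.5 and 127 CPM and the soluble antagonist Il1rn at 235 and 562 CPM. Il6 was at 13.4 and 32.0 CPM, 2.39-fold higher (2.22 to 2.59), and Ptgs2, which makes prostaglandins, at 345 and 929 CPM. Irg1, the enzyme of itaconate synthesis, was 4.44-fold higher (4.27 to 4.63) at 39.9 and 177 CPM. Il12b, a subunit of interleukin-12, had the highest ratio of the list, 29.7 (14.1 to 75.2), on 7 and 150 UMIs. Several of these calls ended with Control class shares, where the log2 ratio of Irg1 went from 2.15 to 0.86, that of Il1r2 from 1.68 to 0.64, that of Il1rn from 1.26 to 0.85 and that of Il1b from 1.33 to 0.998. At equal weight Il6 went from 1.26 to 0.994, short of the rule, and Il12b from 4.89 to 3.71. Tnf (275 and 483 CPM) and Il10 (38.9 and 57.1 CPM) were short of the rule, and Il18 was the only tested member below 1, at 52.3 and 29.0 CPM.

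Chemokines were higher for 6 of 19 tested members and lower for 1. The higher members included the neutrophil attractants Cxcl2 (3493 and 8557 CPM, 2.45-fold), Cxcl3 (15.4 and 142 CPM, 9.23-fold) and Ppbp (8.91 and 83.1 CPM, 9.32-fold). Ccl3, which attracts several leukocyte types, was at 701 and 1875 CPM, and Ccl17, a T-cell attractant of dendritic cells, at 0.333 and 3.58 CPM, 10.7-fold higher (7.11 to 16.8). The monocyte attractants lay on the other side, with Ccl12 lower past the rule at 347 and 149 CPM and Ccl2 at 2279 and 1642 CPM short of it. Of 12 chemoattractant receptors, 4 were higher and none lower, led by the formyl peptide receptor Fpr1 at 3.73 and 17.2 CPM, 4.62-fold higher (4.05 to 5.28). The others past the rule were Cxcr2, Ccrl2 and Ltb4r1. With Control class shares the calls of Cxcl2 (log2 ratio 0.82), Ccl3 (0.29), Cxcr2 (0.57), Ccrl2 (0.30) and Ltb4r1 (0.92) ended. Ccl17 went from 3.42 to 2.82 with these shares and to 2.69 without called doublets, and Cxcl3 from 3.21 to 4.16 at equal weight.

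Repair and lipid genes went both ways, with 2 of 20 tested members higher and 3 lower and a median log2 ratio of -0.27. Vegfa, the vascular growth factor, was higher at 33.3 CPM in Control and 72.4 in KO. Retnla, a marker of alternatively activated macrophages, had 121 and 6 UMIs, 14.5-fold lower (6.48 to 40.4). Its log2 ratio of -3.86 became -6.23 with mitochondrial UMIs under 5% and -1.54 at equal weight. Pparg, a lipid-sensing nuclear receptor, and its target Fabp4, a fatty acid carrier, were lower at 41.1 and 19.3 CPM and at 315 and 155 CPM. The calls of Vegfa (log2 ratio 0.77), Pparg (-0.995) and Fabp4 (-0.96) ended with Control class shares, which left 1 member of the list higher and 1 lower.

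Scavenger and efferocytosis receptors were higher for 5 of 13 tested members. Besides Marco and Cd163 these were Clec4n (dectin-2, 105 and 542 CPM, 5.18-fold), Clec4e (mincle) and, on 15 and 41 UMIs, Timd4. Axl, a receptor for dying cells, was lower at 41.9 and 16.8 CPM, and its relative Mertk was at 51.4 and 77.3 CPM, short of the rule. Of 19 matrix, coagulation and protease genes 4 were higher, among them F3 (tissue factor, 1.83 and 7.64 CPM), Mmp9 and Mmp14 (43.8 and 91.9 CPM), and Mmp13 was lower at 16.4 and 6.78 CPM. The calls of Mmp9 (log2 ratio from 1.48 to 0.50) and Clec4e (from 1.07 to 0.71) ended with Control class shares, where F3 went from 2.06 to 1.34, and that of Mmp14 (from 1.07 to 0.66) ended at equal weight. Of 9 complement genes only Serping1, an inhibitor of the classical pathway, passed the rule, at a log2 ratio of -1.03. That ratio was -4.99 with mitochondrial UMIs under 5% and -0.27, short of the rule, at equal weight, so its size is uncertain.

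Antigen presentation genes of the classes I and II lay on different sides of 1, and no member of either list passed the rule. All 13 class I and immunoproteasome genes had ratios below 1, with a median log2 ratio of -0.60, and among them Psmb9, a catalytic subunit of the immunoproteasome, was at 136 and 72.3 CPM and Tap1, a peptide transporter, at 112 and 59.6 CPM. Of 9 class II genes 8 had ratios above 1, with a median of 0.55, and Cd74, the invariant chain, was at 1116 and 1631 CPM.

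Cell cycle genes were lower for 6 of 17 tested members, with none higher and a median log2 ratio of -0.67. Those past the rule act mainly in mitosis, with Ube2c at 17.3 CPM in Control and 5.59 in KO, 3.09-fold lower (2.73 to 3.51), and Birc5 (survivin) at 18.8 and 7.62 CPM. Pcna, a DNA replication clamp, was at 105 and 127 CPM and was the only member above 1. A cluster led by Hist1h1b and Top2a, a DNA topoisomerase of dividing cells, held 1.90% of kept cells in Control and 1.03% in KO, and with Control class shares 1 of the 17 members was lower past the rule, with Birc5 at a log2 ratio of -0.91. Within monocytes and macrophages alone, where 2.58% of all tested genes were lower, 5 of the 17 members were, with a median log2 ratio of -0.49. Of 22 glycolysis and hypoxia genes, Egln3, Hilpda and Slc16a3 were higher, the lactate exporter Slc16a3 at 39.2 and 113 CPM, and the list's median was 0.42. Egln3 went from 2.15 to 1.13 with Control class shares. Among immediate early and heat shock genes Hspa1b was lower at 59.2 and 20.6 CPM, and its near-identical neighbour Hspa1a at 98.3 and 51.7 CPM, so that the split between them is uncertain. Of 17 ATF4 stress genes only Phgdh, the first enzyme of serine synthesis, passed the rule, and it was lower. No lysosome, cholesterol and fatty acid, NADPH oxidase or mitochondrially encoded gene passed the rule, and the ribosomal and nuclear oxidative phosphorylation lists had 1 higher member each, Rpl39l of 83 and Ndufa4l2 of 79.

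Genes of other cell types moved with the comparison. The neutrophil list was higher for 10 of 13 tested members, with a median log2 ratio of 1.96, and S100a8, an abundant neutrophil protein, was at 644 CPM in Control and 2502 in KO. The summed level of the 8 neutrophil markers was 1333 CPM in Control and 4893 in KO, none of them at 0, a ratio of 3.67 (3.64 to 3.70), and that of the 6 monocyte markers 4436 and 2612 CPM, a ratio of 0.589. Of 7 tested stromal, endothelial and myogenic genes 5 were lower, and the summed level of the 4 stromal markers was 24.5 and 3.83 CPM. Most collagen UMIs of the Control library came from 22 cells of 1 cluster led by Sparc, which held 754 of its 819 Col1a1 UMIs, while the library labelled KO had 15 such cells with 84 of 134 Col1a1 UMIs. Dcn and Sfrp2 had 177 and 241 UMIs in Control, mostly in that cluster, and 11 and 4 in KO, none in it. At equal weight the log2 ratio of Col1a1 went from -2.14 to -0.51, short of the rule, and that of Dcn went from -3.54 to -2.59 with mitochondrial UMIs under 5%. No muscle fibre gene passed the rule, and no erythroid gene had enough UMIs.

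Cell classes were then compared, with both libraries clustered together without the list genes and the highest and lowest ranked genes. A class was named from fixed markers, such as S100a8, S100a9, Csf3r and Cxcr2 for neutrophils and C1qa, Apoe, Mrc1, Ly6c2 and Ccr2 for monocytes and macrophages, which were kept as 1 class. Monocytes and macrophages made up 76.5% of kept cells in Control and 54.8% in KO, and this difference was -21.7 percentage points (-23.6 to -19.8, from exact 95% limits). The neutrophil share was 10.3% in Control and 20.4% in KO, which is 10.1 points more (8.57 to 11.6). Dendritic cells were 5.19% and 6.24% and T or NK cells 1.88% and 1.11%. Cells in unnamed clusters were 5.84% and 17.1%, so the denominator of every share includes them. The enrichment on beads and the digestion act before these shares are set.

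**Figure D3:**
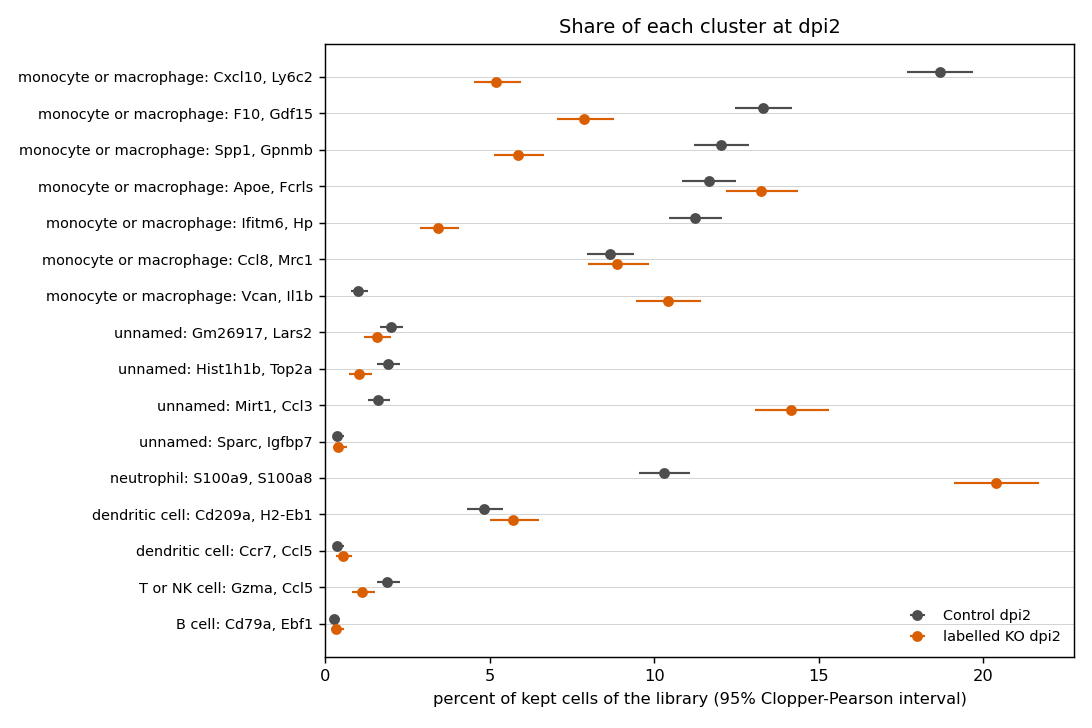
Share of kept cells (percent, x axis) in each cluster of the Control dpi2 library and of the library labelled KO, with exact 95% intervals and clusters named by leading genes. The clusters led by Mirt1 and by Vcan hold 14.2% and 10.4% of the KO cells against 1.60% and 0.998% of the Control cells, and the cluster led by Cxcl10 holds 5.19% against 18.7%.

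The clusters of monocytes and macrophages are given as shares of all kept cells, of which the class as a whole held fewer in KO. A cluster led by Cxcl10, Ly6c2 and Plac8 held 18.7% of the kept Control cells and 5.19% of the kept KO cells, and a cluster led by Ifitm6 and Hp 11.2% and 3.42%. A cluster led by Vcan, Il1b and Il6 held 0.998% and 10.4%. A cluster led by Spp1, Gpnmb and Il7r held 12.0% and 5.84%, and a cluster led by F10 and Gdf15 13.3% and 7.87%. A cluster led by Apoe and Fcrls held 11.6% and 13.2%, a difference of 1.59 points (0.24 to 2.97), and a cluster led by Ccl8 and Mrc1 8.64% and 8.87%, a difference of 0.235 points (-0.918 to 1.41). Within the class alone, the cluster led by Apoe made up 15.2% of the Control cells and 24.1% of the KO cells, and the cluster led by Ccl8 11.3% and 16.2%. The cluster led by Cxcl10 made up 24.4% and 9.46% of the class and the cluster led by Vcan 1.30% and 19.0%. Values within the class are therefore over different mixtures of clusters.

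The largest gain was in a cluster led by Mirt1, Ccl3 and Il1f9, with 96 cells (1.60%) in Control and 538 (14.2%) in KO, a difference of 12.6 points (11.4 to 13.8). Its cells were shallow, at medians of 2728 and 3556 UMIs, and no neutrophil marker stood among its 10 leading genes, so it stayed unnamed. S100a8 was at 7162 CPM in its Control cells and 10086 in its KO cells, which lay between the neutrophils (25955 and 37329 CPM) and the monocytes and macrophages (129 and 303 CPM). S100a9, Csf3r, Cxcr2, Retnlg and G0s2 lay between too, with Cxcr2 at 33.5 and 137 CPM against 974 and 1253 in neutrophils. Mmp8, at 3.72 and 34.5 CPM, lay below the monocytes and macrophages (45.0 and 51.9 CPM). Ly6g was at 0 and 7.89 CPM, against 7.39 and 17.8 in neutrophils. Of 8 macrophage markers, Gpnmb was at 1049 and 585 CPM, against 968 and 681 CPM in monocytes and macrophages. The other 7 were far below that class in both libraries, with Apoe at 461 and 438 CPM against 3749 and 5195, C1qb at 37.2 and 49.8 CPM against 947 and 1062, and Mertk at 0 and 4.44 CPM against 57.2 and 94.8. The cluster held 91.4% of all Prok2 UMIs of the library labelled KO, 62.9% of its Il1f9 UMIs, 50.6% of its Mgst2 UMIs and 44.1% of its Ccl3 UMIs. In it Hmox1 was at 253 CPM in Control and 10029 in KO, Gclm at 119 and 1583 CPM, and Ccl3 at 21405 and 22904 CPM.

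Values were next taken within classes. In monocytes and macrophages 237 of 11573 tested genes (2.05%) were higher past the rule and 299 (2.58%) were lower, with a median log2 ratio of 0.00. Hmox1 was at 552 CPM in the Control cells of the class and 9264 in the KO cells, 16.8-fold higher (16.6 to 17.0), Slc40a1 at 3.34 and 69.6 CPM and Spic at 3.95 and 118 CPM. Of 41 interferon response genes 36 were lower and none higher, with a median of -1.48, and Isg15 was at 551 and 193 CPM. The neutrophil list was higher here too, for 7 of 11 tested genes, with S100a8 at 129 and 303 CPM, and the part of free RNA or doublets in this was not tested. Of 23 inflammatory genes 8 were higher, with Il1b at 829 and 1910 CPM and Il6 at 14.1 and 37.8 CPM. Retnla (89 and 5 UMIs) kept the side it had in all cells. Ccl3 was at 464 and 634 CPM, short of the rule.

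In neutrophils 141 of 5692 tested genes (2.48%) were higher and 370 (6.5%) were lower by CPM, so 27.6% of calls were higher. This split depended on the scaling, since the median log2 ratio of all genes was -0.30. With TMM factors, chosen after these data were seen, 283 genes were higher and 150 lower (65.4% higher), and with median-of-ratios factors 264 and 156 (62.9%). All 35 tested interferon response genes were lower by CPM, with a median of -1.85, and 29 were under either other scaling, with medians of -1.49 and -1.51. Hmox1 was at 112 CPM in the Control neutrophils and 5430 in the KO neutrophils, 48.4-fold higher (41.5 to 56.7), and Gclm at 26.9 and 336 CPM. Fth1 was at 12930 and 61398 CPM, 4.75-fold higher, against 2.09-fold in monocytes and macrophages. Cxcl3 was at 33.6 and 909 CPM, and Acta2 at 18.1 and 538 CPM, and neutrophils held 51.6% of the Acta2 UMIs of the library labelled KO. Among 22 glycolysis and hypoxia genes 11 were higher, with Aldoa, an aldolase, at 238 and 1120 CPM. Il1b was at 17143 and 19719 CPM, 1.15-fold.

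Dendritic cells carried the change in Il12b and Ccl17. Their 312 Control cells held 6 Il12b UMIs and their 237 KO cells 140, which was 93.3% of that library's Il12b UMIs, and 25 and 199 Ccl17 UMIs. Of 8173 genes tested in this class, 109 (1.33%) were higher past the rule and 121 (1.48%) were lower. Of 40 interferon response genes 31 were lower in it, with a median of -1.37, and Cxcl10 was at 463 and 77.5 CPM. Glutathione genes passed the rule in neither direction in dendritic cells, with a median of 0.23. T or NK cells, 113 in Control and 42 in KO, serve as the background of free RNA. In them Hmox1 was at 21.8 and 1590 CPM and S100a8 at 454 and 1335 CPM, and the Hmox1 level of the dendritic cells, at 71.9 and 763 CPM, did not exceed that background in KO. Of 17 interferon response genes tested in T or NK cells, 8 were lower and none higher, with a median of -0.91. Over all 2725 genes tested in this class, 75 (2.75%) were lower. The part of free RNA in the interferon values was not tested.

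**Figure D4:**
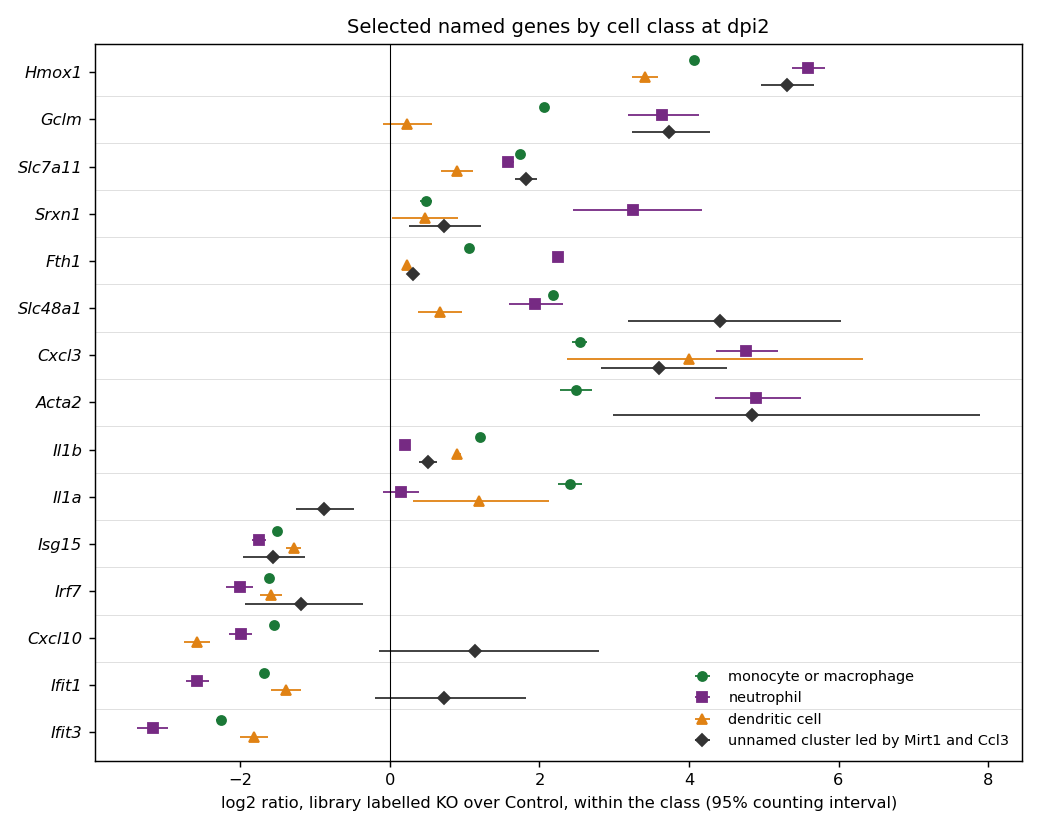
Log2 ratio of KO over Control within each cell class at dpi2 (x axis) for selected named genes, with horizontal bars for 95% counting intervals and 1 symbol per class. Hmox1 lies above 3 and Isg15 below 0 in all 4 groups of cells shown, and Srxn1 lies far to the right in neutrophils (9.48-fold) but not in monocytes and macrophages (1.39-fold).

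Recomputing the ratios with the class shares of the Control library in both libraries showed which calls moved with the shares of the classes. Monocytes and macrophages were 1 class here, so shifts among their clusters were not corrected. The cluster led by Cxcl10 made up 24.4% of that class in Control and 9.46% in KO. The cluster led by Vcan made up 1.30% and 19.0%. A value that hardly moved can therefore still hold such shifts. Of the 391 higher genes, 215 (55.0%) stayed past the rule, and of the 364 lower genes 288 (79.1%) did. In all, 236 of the 12353 genes (1.91%) were higher and 362 (2.93%) lower with these shares. The median of the neutrophil list went from 1.96 to 0.73, that of the inflammatory list from 1.08 to 0.61 and that of the chemokines from 0.80 to 0.29. The medians of the interferon response list (-1.42 and -1.44) and of the heme list (0.43 and 0.46) hardly moved. By count, the higher members went from 10 to 5 of the 13 neutrophil genes, from 13 to 5 of the 25 inflammatory genes, from 8 to 4 of the 22 glutathione and thioredoxin genes and from 4 to 1 of the 12 chemoattractant receptors. The lower members went from 6 to 1 of the 17 cell cycle genes and from 37 to 36 of the 41 interferon response genes. The heme list had 4 higher members and the iron list 3 either way. Of single genes, S100a9 went from a log2 ratio of 1.91 to 0.69, Csf1 from 1.23 to 0.04 and Ccl3 from 1.42 to 0.29, while Hmox1 was at 4.02 and 4.06. Prok2 went from 5.10 to 2.38 and Il1f9 from 3.92 to 2.11.

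**Figure D5:**
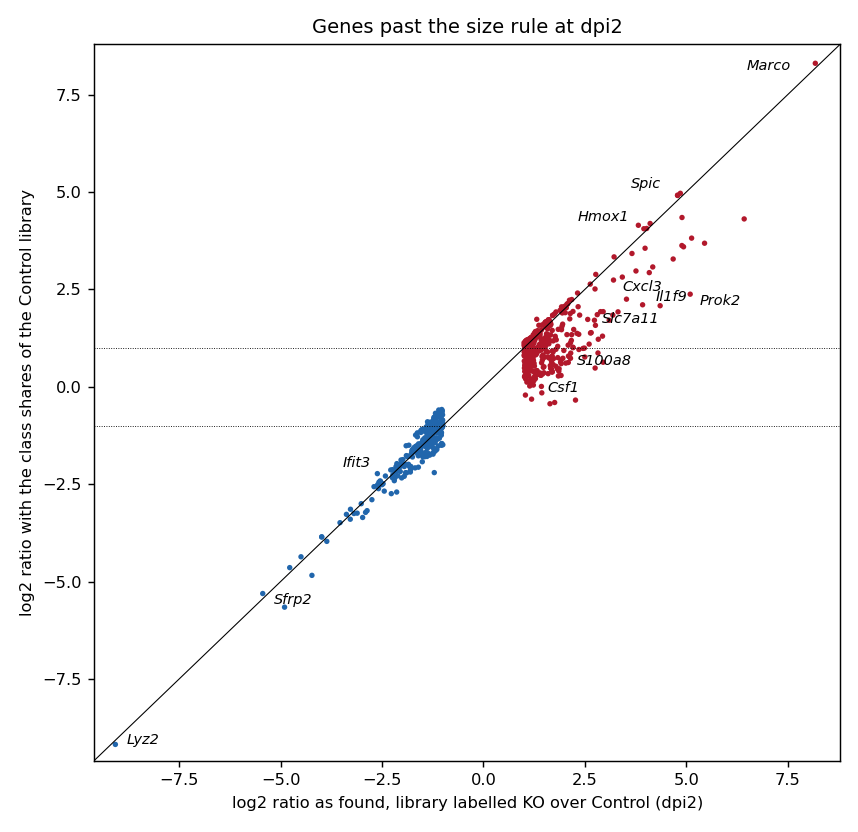
Log2 ratio of KO over Control at dpi2 as found (x axis) and with the Control library's class shares applied to both libraries (y axis) for genes past the size rule, with the diagonal and dotted lines at 2-fold. S100a8 (1.96 and 0.73) and Prok2 (5.10 and 2.38) fall below the diagonal, and Hmox1 (4.02 and 4.06) lies on it.

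The share of cells with at least 1 UMI was compared after thinning each cell to 2000 UMIs and leaving out shallower cells, which were 26 and 4 monocytes and macrophages, 165 and 51 neutrophils and 2 and 0 T or NK cells in Control and KO. Hmox1 was found in 39.4% of Control and 89.1% of KO monocytes and macrophages, and in 16.3% and 98.2% of neutrophils. T or NK cells, which are not known for Hmox1, had a UMI in 2.7% and 33.3% of cells, at median depths of 4179 and 5524.5 UMIs before thinning, against 12056 and 17912 in monocytes and macrophages and 2299 and 3415.5 in neutrophils. Dendritic cells, at 8.41% and 34.0%, were at about this background in KO. Unthinned, the shares in monocytes and macrophages were 79.8% and 99.0% and in neutrophils 20.8% and 99.4%. Spic was found in 0.962% and 16.5% of monocytes and macrophages, in 0% and 2.38% of T or NK cells (0 of 111 Control cells, where a limit of 3 counts allows up to 2.7% of cells with a UMI, for counting error only), and in 0% and 0.277% of neutrophils. The Spic background in KO was 1 cell of 42, and unthinned shares of Spic in monocytes and macrophages were 2.74% and 47.5%.

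Shares of the other genes after thinning kept the sides that their CPM had. Isg15 was found in 51.3% and 24.8% of monocytes and macrophages, in 60.8% and 25.9% of neutrophils and in 23.4% and 16.7% of T or NK cells, which respond to interferon themselves. Without thinning the Isg15 shares were 84.9% and 58.7% in monocytes and macrophages and 62.5% and 32.3% in neutrophils. Gclm was found in 7.39% and 26.9% of monocytes and macrophages and in 5.73% and 40.5% of neutrophils, against 7.21% and 9.52% of T or NK cells. The unthinned Gclm shares were 32.6% and 77.4% and, in neutrophils, 5.65% and 52.6%. Slc40a1 was found in 0.503% and 6.49% of monocytes and macrophages and, unlike Spic, also in 20.04% and 33.3% of neutrophils, with 0% and 2.38% in T or NK cells. Il6 was found in 2.49% and 5.63% of monocytes and macrophages, and Il1b in 38.9% and 55.6% of them and in 99.3% and 99.7% of neutrophils. In T or NK cells Il6 was found in 0.901% and 0% (0 of 42 KO cells, which allows up to 7.14% of cells with a UMI) and Il1b in 13.5% and 21.4%. The Il1b level of the T or NK cells was 537 CPM in Control and 1140 in KO, 2.12-fold higher (1.81 to 2.49), and the part of free RNA in the Il1b values of other classes was not tested. Unthinned, the shares in monocytes and macrophages were 1.72% and 20.4% for Slc40a1, 7.57% and 16.1% for Il6 and 60.4% and 86.2% for Il1b.

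The comparison at dpi4, between other mice, called fewer genes, with 152 of 13398 (1.13%) higher and 334 (2.49%) lower. Of the 391 genes higher at dpi2, 39 were also higher at dpi4, which is 9.97% of the former and 25.7% of the latter, and 22 were lower. Of the 364 lower genes, 28 were also lower, 7.69% and 8.38% of the lists, and 9 were higher. Those higher on both days included Hmox1, at 424 and 6332 CPM at dpi4, Spic at 12.5 and 196 CPM, Slc40a1 at 66.3 and 666 CPM and Marco at 0.667 and 7.99 CPM. Slc48a1, Gclm, Gclc, Abcc1, Fth1, Clec4n, Fpr1 and Ccl17 were among them as well.

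The interferon response, inflammatory and neutrophil lists did not hold their dpi2 position at dpi4. Of 41 interferon response genes none passed the rule at dpi4 in either direction, with a median log2 ratio of -0.08, and Isg15 was at 129 and 113 CPM. The inflammatory list had 1 higher member and a median of -0.15, and Il1b was at 635 CPM in Control and 442 in KO. Of 11 tested neutrophil genes 4 were lower, and S100a8 was at 107 and 40.1 CPM. Retnla was lower at both days, at 50.5 and 11.6 CPM at dpi4. The difference between the days was not tested, since each day had 1 library per group.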

How the data were processed

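The authors aligned 3′ single-cell reads of CD45-enriched muscle cells to mm10 with Cell Ranger 6.1.2 (submitters' processing notes) and deposited raw UMI counts per gene and barcode. The study's own cell filters, doublet removal and annotation were not used here, and doublets were kept. The total of kept UMIs was 77978276 and 56181953 at dpi2. From the deposited counts, cells with at least 500 genes and less than 10% mitochondrial UMIs were summed per library, and genes with at least 50 UMIs in the pair were compared by CPM ratio. A gene with 0 UMIs in 1 library was given no fold, and the limit for a share of 0 was set at 3 counts. Classes came from Leiden clusters (resolution 1, 2000 variable genes, 30 components, 15 neighbours, 589 genes left out) and the fixed markers. The size rule and its counting intervals were tested on simulated data. On simulated counts the weighted ratio with equal weights was the same as the plain ratio. Clustering, class naming, unequal weights, thinning and the motif search were not tested in this way. Python 3.11.15, numpy 2.4.6, scipy 1.17.1, pandas 2.3.3, scikit-learn 1.9.0, scanpy 1.11.5, leidenalg 0.10.2, igraph 0.11.9 and matplotlib 3.10.9 were used.

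Genes named are members of the gene lists, the 15 highest and 15 lowest ratios among genes past the size rule with at least 200 UMIs ranked by the interval bound nearest 1, the 8 largest gains and 8 largest losses in CPM, and Bach1, Lyz1, Lyz2 and Xist. Up to 6 genes past the rule in opposite directions in monocytes or macrophages and in neutrophils were also to be named, and there were none. Cthrc1 was named outside this rule, after its values were seen. The members, lists and rules were chosen with earlier results of these data known. The symbols Flvcr1, Flvcr2, Mx2, Trac and Trbc2 were not matched, and Acod1 was read as Irg1. Alternatives covered the gene, mitochondrial, UMI and fold limits, the scaling, equal weight per cell, the class shares, the clustering, doublet calls by Scrublet (289 and 115 cells removed) and the thinning depth. Scaling within neutrophils and leaving the cluster led by cell cycle genes unnamed were chosen after seeing the data. A few list members are not reported here.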

Additional observations from a re-analysis of the deposited data

Results flagged for a closer look

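Several results lay on opposite sides at dpi2 and dpi4, each day with 1 library per group and other mice, so the difference between the days was not tested. As log2 ratios of KO over Control, Cxcr2 was at 1.72 at dpi2 and -1.48 at dpi4, S100a8 at 1.96 and -1.41, and S100a9 at 1.91 and -1.65. Hspa1b was at -1.52 and 1.48, with near-identical Hspa1a beside it. The median of the inflammatory list was 1.08 and -0.15, that of the chemokines 0.80 and -0.08, and that of the MHC class II list 0.55 and -0.14. The class I and immunoproteasome list stood at -0.60 and 0.18 and the cell cycle list at -0.67 and 0.18. The neutrophil list stood at 1.96 and -0.65, and Cxcr2, S100a8 and S100a9 are among its members.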

How the results depend on the processing

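No paired analysis was possible because each group was 1 library, so no replicate could be left out either. No named gene past the size rule changed sign over all cells under the alternatives run, but smaller values did. The complement median went from 0.14 to -0.13 and the mitochondrially encoded median from 0.04 to -0.18 with every cell given the same weight, the ATF4 stress median from -0.24 to 0.02 with at least 200 UMIs, and the muscle fibre median from 0.20 to -0.02 with the Control class shares. The 755 calls (391 higher, 364 lower) became 458 (240 and 218) with at least 200 UMIs, 1657 (829 and 828) at 1.5-fold and 252 (145 and 107) at 3-fold. Giving every cell the same weight left 577 lower, and the Control class shares left 236 higher. Clustering each library alone moved the differences in share to 2.25 points for dendritic cells, -0.27 for B cells (0.05 before) and 8.07 for unnamed cells, and a minimum of 200 genes moved them to -18.7 for monocytes and macrophages and 8.04 for unnamed cells. Thinning to 1000 UMIs moved the differences in monocytes and macrophages to 55.1 points for Hmox1, 10.4 for Spic, 3.75 for Slc40a1, 11.8 for Gclm, -21.9 for Isg15 and 1.72 for Il6, and in neutrophils to 7.96 for Slc40a1 and 21.0 for Gclm. Without thinning they were 19.2 for Hmox1, 44.8 for Spic, 18.6 for Slc40a1, 44.8 for Gclm, -13.7 for Cxcl10, 8.56 for Il6 and 25.8 for Il1b, and in neutrophils 23.2 for Slc40a1 and 46.9 for Gclm. Within neutrophils, the calls of 141 higher and 370 lower became 283 and 150 with TMM factors and 264 and 156 with median-of-ratios factors. Over the settings run, the interferon response median stayed between -1.46 and -1.39 with 14 to 40 members lower, and the inflammatory median lay between 0.61 and 1.1. The cause of these shifts was not tested beyond what each alternative changes. Depth limits genes under 50 UMIs, and each group is 1 library.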

Other observations

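Several of the genes with the lowest ratios belonged to none of the gene lists. Gm42835 was at 7.03 CPM in the Control library and 0.676 in the library labelled KO, 10.4-fold lower (7.47 to 14.8). Pou3f1, a POU-domain transcription factor, was at 3.85 and 0.659 CPM, 5.84-fold lower (4.14 to 8.46), and Pcdh7, a protocadherin of the cell surface, at 8.17 and 1.53 CPM, 5.34-fold lower (4.26 to 6.76). BC147527 was at 6.21 and 1.32 CPM and Iigp1, an interferon-inducible GTPase, at 8.48 and 1.87 CPM. With the class shares of the Control library their log2 ratios were -3.27 for Gm42835, -2.42 for Pou3f1, -2.29 for Pcdh7, -2.13 for BC147527 and -2.33 for Iigp1. At dpi4 the log2 ratio of Pcdh7 was -0.98, that of Pou3f1 -0.18 and that of Iigp1 0.98, so these genes did not pass the size rule there.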
